A study of Mus musculus with 16 samples.

Results

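Adra2a, Adcyap1r1, Aass and Rab6b are 4 of the 18566 genes and unnamed transcripts tested in airway epithelium, and 8 probes of the arrays measured them. They were picked for strong shifts with ovalbumin (OVA) that lie outside the mucus and mast cell genes, so their OVA differences are described here without a test. The probes were found through their transcript accessions, and the brightest probe stood for each gene. RNA came from brushed airway epithelium of FvB mice, with 4 arrays in each of 4 groups. These were beta6 knockout (ko) mice given OVA, ko mice given saline, wild type (wt) mice given OVA and wt mice given saline. The beta6 subunit, encoded by Itgb6, pairs with alpha v in an epithelial integrin that activates latent TGF-beta, and its knockout is labelled only by that name. OVA, an egg white protein used as an allergen, was injected into the abdomen at 20 ug on days 1, 4 and 7 and then given into the nose at 10 ug every week for 9 weeks. Control mice had saline on the same schedule. The mice were 6 to 8 weeks old at sensitization, and tissue was taken 24 h after the last dose. The labels do not say whether each array stands for 1 mouse or a pool, so the p-values measure the spread between these samples.

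The Adra2a and Adcyap1r1 products are receptors at the cell surface that act on cyclic AMP in opposite ways. Adra2a encodes the alpha-2A adrenergic receptor, which binds adrenaline and noradrenaline and lowers cyclic AMP through inhibitory G proteins. Adcyap1r1 encodes PAC1, the receptor with high affinity for the neuropeptide PACAP, which raises cyclic AMP through stimulatory G proteins. Aass encodes a mitochondrial enzyme that carries out both opening steps of lysine breakdown, by way of saccharopine. Rab6b encodes a small GTPase of Golgi transport, best known from neurons, and is a close relative of the widely expressed Rab6a.

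The promoters are shown because 3 of the genes were lower together with OVA and 1 was higher. Each stretch holds 300 bases, 250 before and 50 after the start of the gene, from RefSeq on GRCm38.p6, written 5′ to 3′ on the strand of the gene. Capitals mark matches on either strand to TGACG, the core of the cyclic AMP response element, to CCAAT, to the TATA box TATAAA or to the STAT6 site, which is TTC and GAA with 4 bases between them.
Adra2a (chr19:54045009-54045308, plus strand): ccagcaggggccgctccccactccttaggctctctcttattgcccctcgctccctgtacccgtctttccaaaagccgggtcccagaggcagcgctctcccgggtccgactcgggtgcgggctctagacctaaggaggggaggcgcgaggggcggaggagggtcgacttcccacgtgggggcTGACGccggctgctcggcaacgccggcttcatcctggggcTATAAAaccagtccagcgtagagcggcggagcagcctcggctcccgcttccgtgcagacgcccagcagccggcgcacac
Adcyap1r1 (chr6:55451728-55452027, plus strand): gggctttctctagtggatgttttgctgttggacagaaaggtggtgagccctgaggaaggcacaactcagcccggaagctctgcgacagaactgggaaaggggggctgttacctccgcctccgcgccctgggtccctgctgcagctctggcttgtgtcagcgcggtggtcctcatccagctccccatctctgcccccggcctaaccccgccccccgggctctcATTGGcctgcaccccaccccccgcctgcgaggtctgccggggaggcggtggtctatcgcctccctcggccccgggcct
Aass (chr6:23132937-23133236, minus strand): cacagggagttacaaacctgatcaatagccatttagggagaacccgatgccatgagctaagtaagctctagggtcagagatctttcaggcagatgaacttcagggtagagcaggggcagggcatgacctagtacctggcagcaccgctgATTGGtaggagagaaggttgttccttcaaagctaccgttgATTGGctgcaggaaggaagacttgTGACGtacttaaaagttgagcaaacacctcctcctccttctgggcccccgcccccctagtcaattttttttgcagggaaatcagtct
Rab6b (chr9:103111824-103112123, plus strand): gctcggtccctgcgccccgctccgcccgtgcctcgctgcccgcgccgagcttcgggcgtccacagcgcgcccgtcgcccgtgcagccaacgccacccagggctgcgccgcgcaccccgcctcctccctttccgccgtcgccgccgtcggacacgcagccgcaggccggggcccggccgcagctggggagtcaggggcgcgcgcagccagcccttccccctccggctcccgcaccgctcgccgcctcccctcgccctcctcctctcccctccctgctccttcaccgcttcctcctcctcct

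The Adra2a promoter held 1 TATA box, with its capitals starting 29 bases before the start of the gene, and 1 cyclic AMP core at 69 bases before it. The Aass promoter held 1 cyclic AMP core and 2 CCAAT boxes, and Adcyap1r1 held 1 CCAAT box, these boxes all reading on the opposite strand. Rab6b held no match to any of them, and none of the 4 windows held the full cyclic AMP element TGACGTCA or a STAT6 site. Of 32851 promoters of this length, 20.81% held TGACG, 37.41% CCAAT, 13.62% TATAAA, 1.79% TGACGTCA and 6.95% the STAT6 site. The TGACG core lies within the full element, so these matches overlap. Base composition set the promoters apart, with 42 CpG pairs and 78.7% G and C in Rab6b, 28 and 68.7% in Adra2a, 17 and 67.3% in Adcyap1r1, and 5 and 50.3% in Aass. The median over all promoters was 7 CpG pairs and 52.7% G and C. A match is a description of letters and no evidence of binding.

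Levels are given as log2 of the signal relative to the 75th percentile of its array, with a common floor at -3.32, below which signals were not ordered. The 75th percentile ran from 78.0 to 793 intensity units, both extremes in ko mice (OVA array 4 and saline array 3), and 43.3% to 74.5% of probes were well above background. The means of the 7 epithelial markers (Epcam, Cdh1, Krt8, Krt18, Krt19, Cldn7 and Esrp1) lay between 4.60 and 5.20 on all 16 arrays. Esrp1 was the lowest of them, from -0.86 to -0.15. These genes mark epithelium in general, so they do not check that it came from the airway. Sftpc, an alveolar surfactant protein, ran from 1.29 to 6.40. Itgb6 itself ranged from -1.71 to -0.73 in ko and from -0.93 to -0.39 in wt, so the genotypes overlapped. The files do not say whether its probe lies in the disrupted part, so it does not check the labels of single arrays. Outlying spots were left out, which removed 1 value of the 4 genes, that of Adcyap1r1 on ko OVA array 3.

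Adra2a was the gene of the set that was higher with OVA. In ko mice its level was 2.04, 3.27, 2.90 and 2.39 on the 4 OVA arrays, against 0.23, 0.26, -0.04 and 1.13 on the 4 saline arrays. In wt mice it was 3.29, 3.01, 3.10 and 2.92 with OVA, against -0.12, 0.19, -0.59 and 0.27 with saline. Every OVA array lay above every saline array of either genotype, and the wt OVA arrays lay closest together. The difference between OVA and saline was 2.25 ± 0.28 in ko (log2, SE, n = 4 and 4), a 4.77-fold higher level, and 3.14 ± 0.28 in wt, 8.81-fold higher. By size this was the 24th highest of 18566 differences in ko and the 12th highest in wt, places that follow from the choice of the gene. In order of mean level the groups ran from wt OVA (3.08 ± 0.16, SD) through ko OVA (2.65 ± 0.54) and ko saline (0.40 ± 0.51) to wt saline (-0.06 ± 0.39). Neither the OVA pair nor the saline pair of neighbours differed beyond its spread. In bulk tissue such as this, a change in the number of cells of a type and a change in RNA per cell cannot be told apart.

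The other probes of Adra2a gave the same direction. The second probe averaged 2.41 ± 0.62 with OVA and 0.28 ± 0.63 with saline in ko (SD, n = 4 each), and 2.81 ± 0.25 with OVA and -0.46 ± 0.36 with saline in wt. The third probe was dim, at -2.10 ± 0.65 on ko OVA arrays and -1.43 ± 0.27 on wt OVA arrays, while 3 of 4 ko saline arrays and all 4 wt saline arrays were at the floor. On ko OVA array 4, the dimmest array of the study, the third probe was not well above background.

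**Figure D1:**
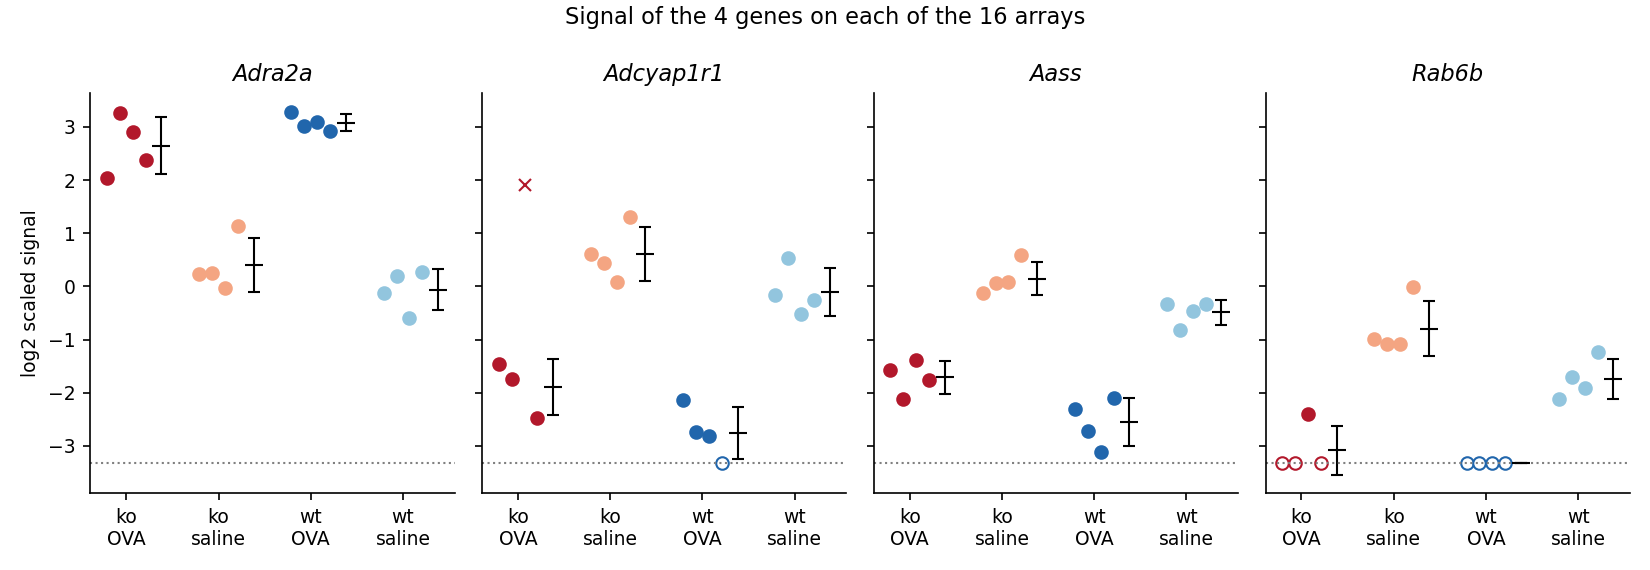
Log2 scaled signal (vertical axis) of the probe that stands for each gene, for the 4 arrays of each group; open circles are at the floor (dotted line), the cross is the Adcyap1r1 spot left out on ko OVA array 3, and bars are the mean ± SD of the values used. Adra2a lies between 2.04 and 3.29 on the OVA arrays and at or below 1.13 on the saline arrays, while the other genes lie lower with OVA.

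Adcyap1r1, the PACAP receptor gene, was lower with OVA. In ko mice its level was -1.47, -1.74 and -2.47 on the 3 OVA arrays with a value, against 0.60, 0.43, 0.09 and 1.31 on the saline arrays. In wt mice it was -2.13, -2.74, -2.82 and the floor with OVA, against -0.16, 0.53, -0.52 and -0.26 with saline. Among these values the groups did not overlap in either genotype. The probe was not well above background on ko OVA array 4 (-2.47), and wt OVA array 4 was at the floor. The fitted difference was -2.50 ± 0.35 in ko (SE, n = 3 and 4) and -2.65 ± 0.32 in wt (n = 4 and 4), the wt size being limited by the floor. The group means ran from ko saline (0.61 ± 0.51, SD) through wt saline (-0.11 ± 0.45) and ko OVA (-1.89 ± 0.52) to wt OVA (-2.75 ± 0.49), with the genotypes overlapping under each agent.

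The ko value depended on leaving out 1 spot. On ko OVA array 3 that spot read 1665 intensity units, a level of 1.91, above all 8 saline arrays, and keeping it gave a ko difference of -1.55 ± 0.68. The second Adcyap1r1 probe read 27.1 units on that array, which is at the floor. This second probe was at the floor on all 8 OVA arrays and on 3 of 4 wt saline arrays, and ran from -3.13 to -1.72 on the ko saline arrays. Its differences of -0.77 ± 0.26 in ko and -0.26 ± 0.26 in wt were therefore limited by the floor. With normexp background correction the first probe gave -1.62 ± 0.22 in ko and -1.07 ± 0.21 in wt.

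Aass, the lysine enzyme gene, had a single probe that was well above background on all 16 arrays. Its level in ko mice was -1.57, -2.12, -1.38 and -1.76 with OVA, against -0.13, 0.06, 0.07 and 0.58 with saline. In wt mice it was -2.31, -2.72, -3.11 and -2.09 with OVA, against -0.33, -0.82, -0.46 and -0.33 with saline. Every OVA array lay below every saline array. The difference was -1.86 ± 0.23 in ko, 3.63-fold lower, and -2.07 ± 0.23 in wt, 4.19-fold lower (SE, n = 4 and 4 each). With normexp, which adds an offset of 50 and so compresses low signals, it was -1.16 ± 0.12 in ko and -0.79 ± 0.12 in wt. The group means ran from ko saline (0.15 ± 0.30, SD) through wt saline (-0.49 ± 0.23) and ko OVA (-1.71 ± 0.31) to wt OVA (-2.56 ± 0.45).

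Rab6b, the Golgi GTPase gene, lay near the limit of detection with OVA. In ko mice only OVA array 3 left the floor, at -2.39, against -0.99, -1.08, -1.08 and -0.01 on the saline arrays. In wt mice all 4 OVA arrays were at the floor and 1 of them was well above background, against -2.11, -1.71, -1.92 and -1.23 with saline. The groups did not overlap in either genotype. The wt level was thus at least 2.98-fold lower with OVA, and the fitted ko difference was -2.29 ± 0.26 (SE, n = 4 and 4), a size that depends on the floor. The mean was -0.79 ± 0.52 in ko saline and -1.74 ± 0.38 in wt saline (SD). The second Rab6b probe was at the floor on all OVA arrays except wt OVA array 1 (-3.26) and on all saline arrays except ko saline array 4 (-2.96), so it gave no usable difference. With normexp background correction the Rab6b difference was -0.46 ± 0.14 in ko and -0.12 ± 0.14 in wt, the wt value lying within its error.

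**Figure D2:**
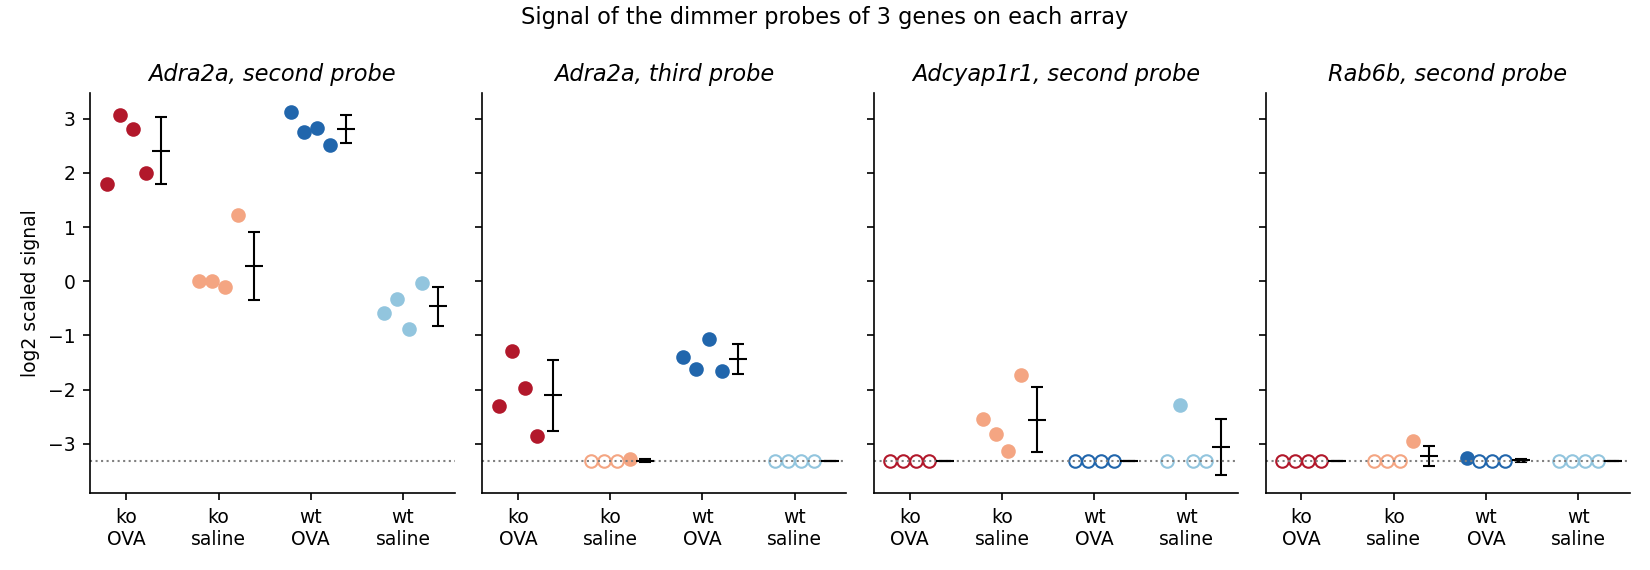
Log2 scaled signal (vertical axis) of the dimmer probes of Adra2a, Adcyap1r1 and Rab6b on the 4 arrays of each group, with open circles at the floor (dotted line) and bars for the mean ± SD. Adra2a is higher with OVA on both of its other probes, whereas the second probes of Adcyap1r1 and Rab6b are mostly at the floor.

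Over all genes tested, 3.09% in ko lay higher and 2.14% lower without overlap, and in wt 4.87% and 4.41% did. With limma and Benjamini-Hochberg adjustment at 0.05, 89 genes were higher (0.479%) and 50 lower (0.269%) with OVA in ko, and 289 were higher (1.56%) and 196 lower (1.06%) in wt. Since the genes were chosen from these contrasts, nothing is read from their place among them.

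Slides carried arrays of several groups, and 3 slides held both groups of each contrast. Within those slides the Adra2a difference was 1.77, 1.81 and 3.16 in ko and 2.74, 3.04 and 3.78 in wt. The Aass difference was -1.96, -1.45 and -2.19 in ko and -2.39, -1.76 and -2.24 in wt. Adcyap1r1 ranged from -2.07 to -2.00 on 2 slides in ko and from -3.15 to -1.96 on 3 slides in wt, and Rab6b from -2.38 to -2.23 in ko and from -2.09 to -1.21 in wt. Among the values used, the OVA and saline arrays of each gene did not overlap within a genotype. The signs within slides were thus fixed by the choice of the genes, and the values only show how far the sizes varied. For Adcyap1r1 in ko this holds only with the spot on ko OVA array 3 left out, which stood at 1.91.

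**Figure D3:**
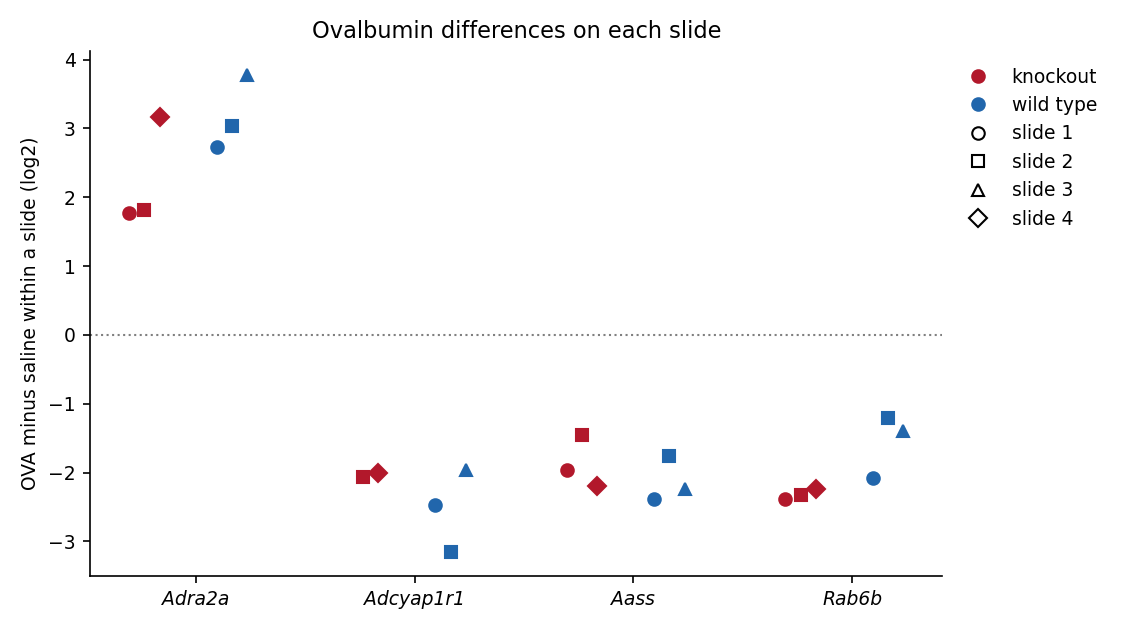
OVA minus saline (log2, vertical axis) for each gene within each slide that held both groups, ko left of wt, with 1 symbol shape per slide. Adra2a lies between 1.77 and 3.78 and the other genes between -3.15 and -1.21; Adcyap1r1 has no ko value on slide 1, where its OVA spot was left out.

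Between genotypes the question was whether loss of the integrin shifted these genes. The choice of the genes did not use the average over both agents. The differences after saline, after OVA and in the interaction draw on levels that entered that choice. Their intervals and p-values are therefore not free of it. Averaged over both agents, ko minus wt was 0.74 ± 0.16 for Aass (log2, SE, 8 arrays against 8, limma adjusted p = 0.0930, 95% interval 0.40 to 1.08). It was 0.79 ± 0.24 for Adcyap1r1 (limma adjusted p = 0.376, interval 0.28 to 1.30, 7 against 8 arrays) and 0.59 ± 0.19 for Rab6b (limma adjusted p = 0.406, interval 0.19 to 0.99). For Adra2a it was 0.01 ± 0.20 (limma adjusted p = 0.985, interval -0.42 to 0.45). None of the 4 genes passed after adjustment over all 18566, where 0.269% of genes did. With the values the authors deposited in their series table, Aass did pass (0.68, limma adjusted p = 0.0223), whereas with normexp background correction its difference was 0.29 averaged over agents and 0.11 after OVA. The averaged Adcyap1r1 difference was 1.27 with the outlying spot kept and 0.26 with the second probe. For Rab6b, 3 ko OVA arrays and 4 wt OVA arrays were at the floor, so its averaged difference has no settled size. It was 0.76 with a floor 1 log2 unit lower and 0.04 with the second probe, which was mostly at the floor.

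After saline alone, the level of Aass ran from -0.13 to 0.58 in ko and from -0.82 to -0.33 in wt, and that of Rab6b from -1.08 to -0.01 in ko and from -2.11 to -1.23 in wt. These 2 genes lay higher in ko without overlap, as 1.99% of genes did, and Adra2a and Adcyap1r1 overlapped. The ko minus wt differences were 0.95 ± 0.26 for Rab6b, 0.72 ± 0.32 for Adcyap1r1, 0.64 ± 0.23 for Aass and 0.46 ± 0.28 for Adra2a. None passed (limma adjusted p from 0.411 for Rab6b to 0.886 for Adra2a), where 0.162% of genes did. For all 4 genes ko saline array 4 was the highest of its group. Without it the differences were 0.69 for Rab6b, 0.48 for Adcyap1r1, 0.49 for Aass and 0.21 for Adra2a.

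After OVA the ko and wt arrays of each gene overlapped. The differences were 0.86 ± 0.35 for Adcyap1r1 (3 ko arrays), 0.85 ± 0.23 for Aass, 0.23 ± 0.26 for Rab6b and -0.43 ± 0.28 for Adra2a. The Adcyap1r1 value rested on leaving out the spot on ko OVA array 3, being 1.81 with that spot kept and 0.00 with the second probe, which was at the floor on all 8 arrays. None passed (limma adjusted p from 0.472 for Aass to 0.935 for Rab6b), where 0.145% of genes did. The Rab6b value sets 3 ko arrays at the floor against 4 wt arrays at the floor and rests on ko OVA array 3.

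The OVA response was also compared between genotypes through the interaction, ko response minus wt response. It was -0.89 ± 0.40 for Adra2a (95% interval -1.75 to -0.02), and the second probe gave -1.14 ± 0.46. The third probe, at the floor on 7 of 8 saline arrays, gave no settled size. For the genes lower with OVA it was -0.72 ± 0.37 for Rab6b (interval -1.52 to 0.08), 0.21 ± 0.32 for Aass (-0.47 to 0.89) and 0.15 ± 0.47 for Adcyap1r1 (-0.88 to 1.17). The limma adjusted p was 0.993 for Adra2a, Aass and Rab6b and 0.996 for Adcyap1r1. Over all genes limma called 0% of 18566, with 569 at an unadjusted p under 0.05. With wt OVA at the floor, the wt difference of Rab6b is a lower bound and its interaction has no settled size.

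**Figure D4:**
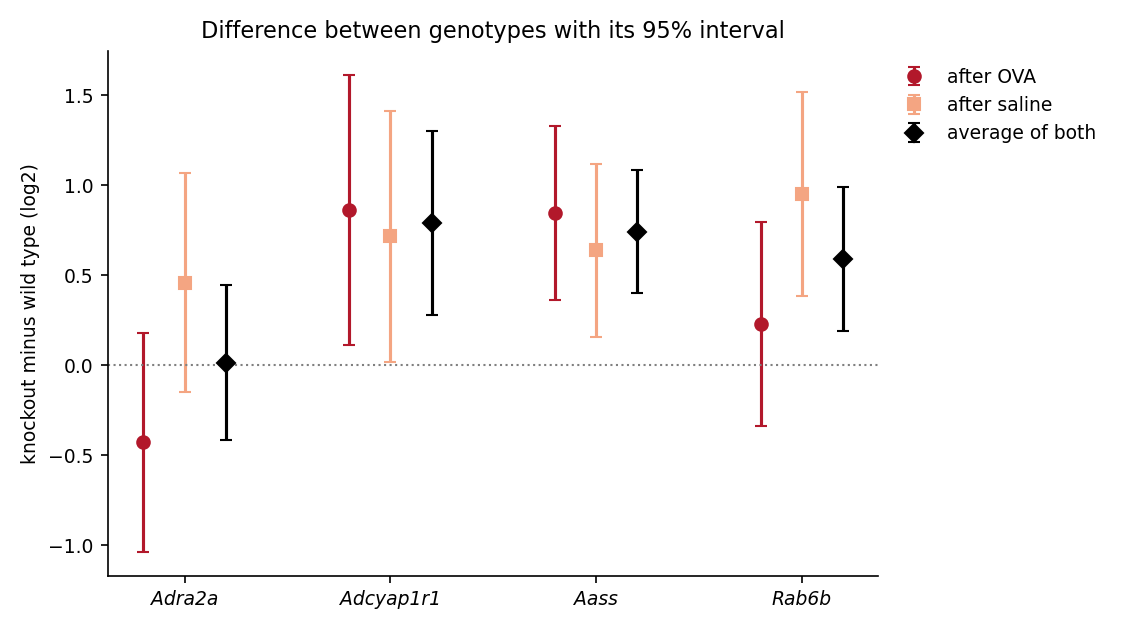
Knockout minus wild type (log2, vertical axis) for each gene after OVA, after saline and averaged over both, with 95% intervals of the limma fit. For Aass and Adcyap1r1 all 3 values lie between 0.64 and 0.86, and for Adra2a the values after OVA (-0.43) and after saline (0.46) lie on opposite sides of 0.

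How the 4 genes varied together was described over all arrays and within groups. As a description over 16 arrays that span both agents (15 for pairs with Adcyap1r1), Pearson's r was 0.93 for each pair of Adcyap1r1, Aass and Rab6b, and between -0.86 and -0.77 for Adra2a with each of them. These values restate the shared shift with OVA for which the genes were chosen. After group means were removed, r was 0.03 for Adcyap1r1 with Aass, 0.41 for Adcyap1r1 with Rab6b and 0.47 for Aass with Rab6b. Adra2a then had an r of 0.05 with Aass, 0.55 with Adcyap1r1 and 0.64 with Rab6b. Rab6b was tied at the floor on 3 ko OVA arrays and 4 wt OVA arrays. For all 4 genes ko saline array 4 was the highest of its group. How far these arrays set the r values was not tested.

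The genes with a symbol whose levels were most like Adra2a were Creb3l4 (r = 0.980), a transcription factor of the endoplasmic reticulum membrane, Fcgbp (0.968), a mucus protein, Pdia4 (0.963), a protein disulfide isomerase, Muc5ac (0.962), a gel-forming mucin, and Foxa3 (0.957), a transcription factor. Mean Muc5ac levels were 3.02 with OVA and -0.30 with saline in ko, and 3.18 with OVA and -0.29 with saline in wt. The r values span both agents and largely restate the OVA shift for which Adra2a was chosen. Goblet cell markers lay higher with OVA. Of 11 measured, limma called 9 higher in each genotype. The list's mean level ran from 3.37 to 5.21 on ko OVA arrays and from 1.77 to 1.98 on ko saline arrays. In wt it ran from 4.17 to 5.13 with OVA and from 1.86 to 2.50 with saline. Ciliated cell markers also lay higher with OVA in both genotypes. Their mean level was 4.12 to 4.42 on ko OVA arrays and 3.69 to 4.01 on ko saline arrays. In wt it was 4.204 to 4.579 with OVA and 3.79 to 4.08 with saline. The median difference was 0.43 in ko and 0.46 in wt, while limma called 0 of 10 in ko and 3 of 10 in wt. Among mast cell markers, limma called 1 of 12 higher with OVA in ko and 7 of 12 in wt. Their mean level was 0.92 to 1.57 on ko OVA arrays and 0.76 to 1.07 on ko saline arrays. In wt it was -0.61 to 0.16 with OVA and -2.36 to -1.79 with saline. The part of these 3 marker lists in the Adra2a result was not tested.

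Scgb1c1 was among the 5 most similar genes of all 3 genes lower with OVA. Here too r spans both agents and largely restates the OVA shift for which the genes were chosen. Sftpb, a surfactant protein, led the list for Adcyap1r1 (r = 0.966 over 15 arrays), ahead of Tmie (0.958), Gsta1 (0.946), a glutathione transferase, Scgb1c1 (0.940), a secretoglobin, and Rptn (0.936). For Aass they were Maoa (0.954), a monoamine oxidase, Sftpb (0.944), Scgb1c1 (0.937), Tmie (0.937) and C1ra (0.932), a complement protease. For Rab6b they were Scgb1c1 (0.963), Kdr (0.953), a receptor of VEGF, Rptn (0.948), Aass itself (0.929) and Fermt2 (0.928). Scgb1c1 averaged -0.48 with OVA and 2.48 with saline in ko, and -1.26 with OVA and 1.74 with saline in wt.

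Markers of other cell types and tissues were read beside these 3 genes, where a marker said to fall or be lower was called by limma. Of 11 alveolar markers 1, Sftpb, fell in each genotype, and the list's mean level was 2.36 to 2.50 on ko OVA arrays, 2.64 to 3.41 on ko saline arrays, 2.33 to 2.88 on wt OVA arrays and 2.24 to 2.99 on wt saline arrays. For 11 markers of fibroblasts and smooth muscle it was -0.16 to 0.43 on ko OVA arrays, 0.49 to 1.37 on ko saline arrays, -0.89 to 0.71 on wt OVA arrays and 0.32 to 0.76 on wt saline arrays, and none of these genes passed. Of 10 club cell markers 1 (Aox3) fell in ko and 2 (Aox3 and Hp) in wt, and the list stood at 7.27 to 8.46 on ko OVA arrays, 7.00 to 8.28 on ko saline arrays, 7.08 to 7.88 on wt OVA arrays and 7.57 to 8.68 on wt saline arrays. Macrophage and dendritic cell markers, with 0 of 9 lower in ko and 2 (Marco and Clec4n) in wt, stood at 0.10 to 1.27 on ko OVA arrays, 0.16 to 1.16 on ko saline arrays, 0.47 to 1.19 on wt OVA arrays and 1.099 to 1.611 on wt saline arrays. Of 6 endothelial markers 1, Kdr, fell in ko and 0 in wt, and the list stood at -2.86 to -1.98 on ko OVA arrays, -2.17 to -1.62 on ko saline arrays, -2.79 to -1.58 on wt OVA arrays and -2.55 to -2.27 on wt saline arrays. Kdr averaged -2.56 with OVA and -0.31 with saline in ko. In wt its mean was also lower with OVA (-2.90, against -1.17 with saline), without a call. Tuft and neuroendocrine markers, with 1 of 9 lower in each genotype, stood at -1.32 to -0.93 on ko OVA arrays, -0.79 to -0.28 on ko saline arrays, -1.28 to -0.61 on wt OVA arrays and -0.96 to -0.55 on wt saline arrays. Striated muscle markers varied widely between arrays, from -2.97 to -1.31 with OVA and from -2.67 to 4.58 with saline in ko, and from -2.93 to 3.98 with OVA and from -2.43 to 1.73 with saline in wt, with 0 of 12 called. Of 12 markers of neurons and nerve glia 4 were measured, at 0.13 to 0.70 on ko OVA arrays, -0.16 to 0.72 on ko saline arrays, 0.49 to 0.92 on wt OVA arrays and -0.03 to 0.88 on wt saline arrays, with no call. The part of these markers in these results was not tested.

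Around Adra2a, the other adrenergic receptors gave no call. Of 9 adrenergic receptor genes 6 were measured, and the median difference of the 5 others was -0.01 in both genotypes, as against 0.00 over all genes. Adra2b, the nearest relative measured, was at the floor on all arrays but 1 of wt OVA, and Adra2c was well above background on 1 of 16 arrays, too few for the test. Adrb1, a receptor that raises cyclic AMP, differed by -0.01 ± 0.12 in ko and 0.33 ± 0.12 in wt (limma adjusted p = 1 and 0.198).

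Genes that couple to these receptors or handle catecholamines included a pair that fell. Of 15 measured, 0 were higher and 2 lower in each genotype, and the list median was -0.05 in ko and 0.04 in wt. Maoa, which oxidizes noradrenaline and serotonin, averaged -0.66 ± 0.30 with OVA and 0.40 ± 0.14 with saline in ko, and -1.02 ± 0.30 with OVA and -0.10 ± 0.22 with saline in wt (SD, n = 4 each). It fell by 1.06 in ko (limma adjusted p = 0.00884) and by 0.92 in wt (limma adjusted p = 0.0108). Maob, the related enzyme, fell by 1.70 in ko (limma adjusted p = 0.00419) and by 1.17 in wt (limma adjusted p = 0.0198). All 4 calls were lost with median scaling of the arrays (limma adjusted p from 0.0548 to 0.175), where the differences were -1.05 in ko and -1.20 in wt for Maoa and -1.68 in ko and -1.45 in wt for Maob. All but that of Maob in wt were lost, at the same differences, when the other groups were kept out of the fit (from 0.0628 to 0.140). Array position as a block ended the wt calls of Maoa (-1.09, limma adjusted p = 0.0563) and Maob (-1.26, limma adjusted p = 0.126), and normexp that of Maob (-0.42, limma adjusted p = 0.0806). The call of Maob in wt was also lost without any one of wt saline 1, wt saline 4 and wt OVA 3 (differences from -1.11 to -1.05, limma adjusted p from 0.0561 to 0.0742). Gnaz, an inhibitory G protein subunit, differed by -0.05 ± 0.19 in ko and 0.72 ± 0.19 in wt (limma adjusted p = 1 and 0.0624).

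Of 25 genes of cyclic AMP synthesis, breakdown and response, 0 passed in ko and 1 in wt. Adcy1, an adenylyl cyclase, averaged -2.88 ± 0.32 with OVA and -2.16 ± 0.29 with saline in ko, and -3.20 ± 0.19 with OVA and -1.98 ± 0.15 with saline in wt. Its difference was -0.72 ± 0.17 in ko (limma adjusted p = 0.0778) and it fell by 1.22 in wt (limma adjusted p = 0.00180), a call lost with normexp background correction (-0.05). Adcy1 was at the floor on ko OVA array 4 and on wt OVA arrays 2 and 4, so these sizes and spreads are limited by the floor. The list median was 0.00 in ko and 0.06 in wt.

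Around Adcyap1r1, the ligands were hardly detected. Adcyap1, which encodes PACAP, and Vip, which encodes its relative VIP, were each well above background on 2 of 16 arrays, and the receptor gene Vipr2 on 1. Vipr1, the remaining receptor of this group, differed by 0.19 ± 0.19 in ko and -0.34 ± 0.19 in wt (limma adjusted p = 0.867 and 0.386). Among 13 measured genes besides Adcyap1r1, of ligands, class B receptors and their partners, 0 were called in ko and 1 was higher in wt, with medians of -0.14 in ko and 0.04 in wt. That gene was Ramp1, a partner of the calcitonin-like receptor, which rose by 0.93 in wt (limma adjusted p = 0.0212) and differed by 0.67 ± 0.20 in ko (limma adjusted p = 0.180). The call of Ramp1 was lost without any one of wt saline 1, wt saline 2, wt OVA 1, wt OVA 2 and wt OVA 3 (differences from 0.81 to 0.96, limma adjusted p from 0.0542 to 0.0812). It was also lost with median scaling (0.65) and with slide (0.89) or array position (1.12) as a block.

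Around Aass, no other gene of lysine breakdown passed. Of 18 others measured, 0 were higher and 0 lower in either genotype, and the median difference was -0.10 in ko and -0.13 in wt. Aldh7a1, which acts next after Aass and is named for that place, averaged -2.69 ± 0.22 with OVA and -2.78 ± 0.29 with saline in ko, and -2.39 ± 0.69 with OVA and -2.65 ± 0.14 with saline in wt (SD, n = 4 each). Aadat, the aminoadipate transaminase that follows, was at or near the floor in every group. Crym, which reduces cyclic ketimines of the pipecolate route, differed by -1.12 ± 0.29 in ko and -0.87 ± 0.29 in wt (limma adjusted p = 0.107 and 0.132). Of 8 genes of lysine transport and tRNA charging 0 were called, and Slc3a2, the heavy chain of several amino acid transporters, differed by -0.31 ± 0.15 in ko and -0.48 ± 0.15 in wt (limma adjusted p = 0.551 and 0.125).

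Around Rab6b, its close relative did not follow it. Rab6a averaged 3.69 ± 0.18 with OVA and 3.65 ± 0.12 with saline in ko, and 3.70 ± 0.08 with OVA and 3.66 ± 0.24 with saline in wt (SD, n = 4 each), a difference of 0.04 ± 0.12 in each genotype. Of 25 other genes in the list of Rab6 regulators and effectors 0 were called, with medians of 0.07 in ko and 0.05 in wt. Of 48 other Rab GTPases 0 were called in ko and 1 was lower in wt. That was Rab34, a GTPase of the Golgi and cilium, which fell by 0.66 in wt (limma adjusted p = 0.00939) and differed by -0.48 ± 0.12 in ko (limma adjusted p = 0.0991). Median scaling (-0.93), array position as a block (-0.71) and the mean of all probes (-0.54) ended the Rab34 call.

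**Figure D5:**
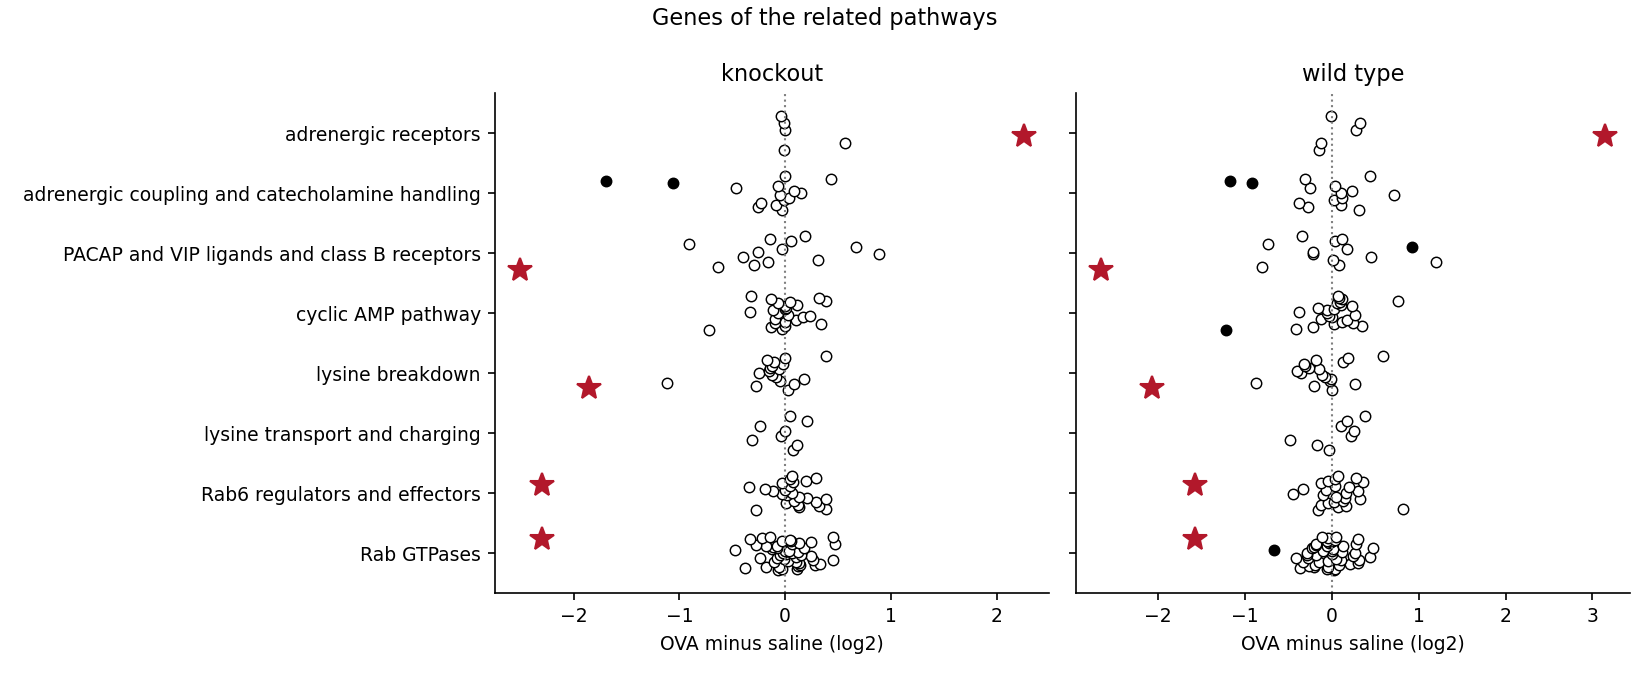
OVA minus saline (log2, horizontal axis) in knockout and wild type for every measured gene of 8 lists, 1 list per row; red stars are Adra2a, Adcyap1r1, Aass and Rab6b, filled circles are other genes called by limma and open circles are genes not called. Most other genes lie near 0, and Maoa and Maob lie lower in both genotypes.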

How the data were processed

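Per the labels' protocols, 0.5 ug of RNA per sample was labelled with Cy3 and hybridized to one-colour Agilent arrays, designed on mm9 per the file headers. The deposited scanner files give background-subtracted signals in intensity units, with quality flags for each spot. They were made with Agilent Feature Extraction, version 10.5.1.1 in the headers but 10.1 in the submitters' processing notes. The authors also deposited a series table of log2 values, with column medians of 5.90 to 5.94 and a lowest Spearman's rho of 0.998 with the processed signal. How it was centred is not given in the sources used here.

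Control spots and outlier spots were left out, repeated spots were averaged, and each array was divided by its 75th percentile. Before taking log2, a floor of -3.32 was set at the highest, over arrays, of the lowest signal that passed as well above background. A probe had to be well above background on 4 or more of 16 arrays, which kept 25615 of 41174. Probes at the floor on every array were also left out of the fit. The brightest probe per gene left 18566 genes and unnamed transcripts, of which 12851 had a symbol from RefSeq (24844 probes matched). Limma 3.58.1 in R 4.3.3 fitted all arrays with group means, with moderated variances and p-values adjusted by Benjamini-Hochberg at 0.05 over every gene. The fit was tested on simulated data. Alternatives changed the scaling, background, floor, filter, probes, outlier spots, blocks and arrays.

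The genes, lists, tests and alternatives were chosen with earlier results of these data known. The genes named are the 4 genes with every probe, list genes called with OVA (or, where fewer than 3 were, those with the smallest p, of which a selection is printed), the nearest relatives and the 5 most similar genes. Aldh7a1 and Aadat were added for their place in the pathway. Replicate numbers were not used to pair the samples. Same-numbered arrays of different groups had correlations of deviations from -0.41 to 0.41 (mean 0.04). Arrays with different numbers had -0.57 to 0.48 (mean -0.01). These ranges overlap, so the check shows no clear pairing and cannot exclude one. The number of arrays limits the precision.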

Additional observations from a re-analysis of the deposited data

Results flagged for a closer look

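In 7 of 25 combinations of probe and group, 1 array stood apart from the other 3. In 5 of them the other 3 arrays were tied at the floor, so any array off the floor had to stand apart, and the rate of about 1 in 20 that chance gives does not apply. The remaining 2 were both on ko saline array 4. There the second Adra2a probe stood at 1.22, with the other 3 arrays between -0.10 and 0.01, and the first Rab6b probe at -0.01, with the others between -1.08 and -0.99. On the same array the second Rab6b probe (-2.96) and the third Adra2a probe (-3.28) were the only ones of their group above the floor. Single arrays also left the floor for the second Rab6b probe on wt OVA array 1 (-3.26), for the first Rab6b probe on ko OVA array 3 (-2.39) and for the second Adcyap1r1 probe on wt saline array 2 (-2.29).

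The Adcyap1r1 spot left out as an outlier on ko OVA array 3 stood at 1.91, above the range of -0.52 to 1.31 of the saline arrays.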

How the results depend on the processing

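The choice of the genes fixed the direction of their OVA differences, so only sizes are compared here. Rab6b in wt was 0.01 with its second probe, an alternative chosen after seeing the data. With normexp and an offset of 50, which compresses low signals, the values were -1.62 in ko and -1.07 in wt for Adcyap1r1, -1.16 in ko and -0.79 in wt for Aass, and -0.46 in ko and -0.12 in wt for Rab6b. With a floor 1 log2 unit lower Rab6b was -2.96 in ko and -2.57 in wt. The mean of all probes gave -1.81 in ko and -1.45 in wt for Adcyap1r1 and -1.19 in ko and -0.78 in wt for Rab6b. The second probe gave -0.77 in ko and -0.26 in wt for Adcyap1r1 and -0.09 in ko for Rab6b. In ko Adcyap1r1 was -1.55 with outlier spots kept and -1.92 with the series table.

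Between genotypes, Adra2a averaged over both agents lay near 0 and changed sign with normexp (-0.0057), the mean of probes (-0.05), slide (-0.06) or position (-0.09) as a block, the series table (-0.0032) and single arrays left out (-0.11 to 0.12). Aass passed with the series table (0.68) and was 0.29 with normexp. The interaction of Adcyap1r1 was -0.55 with normexp, -0.36 with the mean of probes, -0.51 with the second probe, 1.09 with outlier spots kept and -0.07 to 0.44 with single arrays left out. That of Aass was -0.37 with normexp, and Rab6b after OVA was -0.01 with its second probe. The cause was not tested.

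Counts over all genes moved more. OVA in wt called 100 genes with median scaling (39 higher, 61 lower), 212 with normexp, 90 with array position as a block (68 higher, 22 lower) and 235 with only its own arrays, and 235 to 543 with single arrays left out, the lowest without wt saline array 1. OVA in ko called 35 with median scaling, 78 with normexp, 7 with only its own arrays and 69 to 168 with single arrays left out. Knockout against wild type after saline called 15 with position as a block, 55 with the series table and 25 to 47 with single arrays left out. After OVA it called 14 with normexp, 7 with only its own arrays and 25 to 31 with single arrays left out. Averaged over agents it called 79 with median scaling, 29 with normexp, 27 with position as a block, 85 with the series table and 40 to 66 with single arrays left out. The interaction called 1 with normexp or slide as a block and 0 to 3 with single arrays left out. Median scaling moved the median of all genes to -0.25 for OVA in wt, 0.32 for ko against wt after OVA, 0.18 averaged over agents and 0.28 for the interaction.

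The replicate block changed no call of the named genes and gave 102 calls for OVA in ko and 367 in wt. For 7 of 16 arrays the best match in another group carried the same number. Among 7 calls of list genes, 25 of 196 values under alternatives no longer passed and none changed sign. The limit of detection bounds Rab6b and the second probe of Adcyap1r1, whose OVA signals were at the floor on most or all arrays.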
